A study of Arabidopsis thaliana with 6 samples.

Results

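The UGT genes encode UDP-glycosyltransferases, and 47 of them were measured in Arabidopsis thaliana root tips on 6 Affymetrix ATH1 arrays. Members were all probe sets, array controls aside, whose ATH1 annotation named 1 gene with a symbol starting with UGT and a digit. These were 47 of 22746 probe sets, each for a different gene, in 11 numbered UGT families. All 47 were matched in RefSeq, where 58 genes carried such a symbol. A further 3 probe sets named a UGT together with another gene and were not used.

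The arrays formed 3 groups of 2: untreated Col-0 roots at 0 min, untreated Col-0 roots at 120 min, and roots at 120 min labelled GA (gibberellin, a growth-promoting plant hormone). All came from seedlings aged 7 days in the Col-0 background, grown on sucrose plates under continuous light. Only the treated samples had GA2oxOE1I as their source name and a tag for a gene knock out, so plant line and treatment cannot be told apart. The GA dose and the number of plants per sample were not given in the sources used here, and nothing said that the 2 samples of a group came from separate cultures, so that p-values measure only the spread between these samples. Signals below are the deposited linear MAS5 values, always given as replicate 1 and then replicate 2.

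UDP-glycosyltransferases move a sugar from a UDP-sugar, most often UDP-glucose, onto a small acceptor molecule. In many cases, though not for every acceptor, the added sugar makes the acceptor more soluble and inactive, and prepares it for storage in the vacuole. Acceptors known in Arabidopsis include monolignols and other phenylpropanoids, flavonoids, glucosinolate precursors, sterols and the hormones auxin, cytokinin, abscisic acid and salicylic acid. Signals of different probe sets do not compare transcript amounts between genes, so each gene is compared only with itself.

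Of the 47 genes, 22 had a mean signal of 25 or more over the 6 arrays, which is 46.8% of them, against 55.2% of the probe sets that name 1 gene and 60% of all. The test took probe sets with a mean signal above 25.8, the 40th percentile, and the same 22 UGT genes passed. The 3 members just inside were UGT88A1, UGT76C2 and UGT87A2, with means of 29.3, 28.3 and 27.5, and the 3 just outside were UGT73B5, UGT74F1 and UGT85A3, with 23.2, 21.5 and 18.0. Differences are given on the log2(signal + 16) scale, which understates those of dim genes.

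Array quality went with the replicate number. The 3′ to 5′ signal ratio of the actin control, which is higher in more degraded or less fully copied RNA, was 14.8 on treated replicate 1, 4.44 and 4.94 on the untreated replicate 1 arrays and 2.22 to 2.52 on the 3 replicate 2 arrays. The array holds 5 more such ratios, all highest on treated replicate 1. The older actin, GAPDH and ubiquitin sets gave 22.7, 12.1 and 3.59 there, against 12.9 to 21.0, 1.31 to 3.61 and 2.05 to 3.09 on the other 5 arrays. The newer GAPDH and ubiquitin sets gave 1.76 and 1.80, against 0.759 to 1.36 and 0.859 to 1.14. Of the markers fixed for root tip meristem, stem cell niche and root cap, 4 of 18 had a named probe set, and 3 of these passed the filter. These were AGL42, AUR1 and AUR2, with signals of 52.0 to 158 over the 6 arrays, while BBM read 1.46 to 23.6. Of 11 green tissue markers 2 were named, RCA with 109 to 339 and LHCB4.1 with 41.9 to 123. Of 8 root hair markers 2 were named and tested, EXPA7 with 175 to 391 and EXPA18 with 250.0 to 319, and of 11 endodermis and stele markers none was named. In treated against untreated roots at 120 min the median log2 difference was 0.16 for the 3 root tip markers and -0.29 for the 2 root hair markers. It was -0.43 for the 2 green tissue markers, and no marker passed the test. Over the single arrays left out RCA ranged from -1.11 to 0.10 and LHCB4.1 from -0.95 to 0.23. The ranges of AGL42, AUR1 and AUR2 also crossed 0, and those of EXPA7 and EXPA18 did not. The labelled tissue was thus checked on few genes, and the part of a differing cell makeup in the UGT values was not tested. Fewer cells of a type and less RNA per cell cannot be told apart in such samples.

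The first comparison asked which UGT genes differed between treated and untreated roots at 120 min. It holds treatment and plant line together, and a treatment difference below means both at once. No UGT gene passed: limma called 0 of 22, against 0% of all 13647 tested probe sets (lowest adjusted p = 0.999 for both). Folds are also on the log2(signal + 16) scale. The largest values higher in treated roots were those of the sterol glucosyltransferase UGT80B1, 1.56-fold, and of UGT87A2, 1.51-fold. The largest lower values were those of the monolignol enzyme UGT72E3, 0.538-fold, and of the cytokinin enzyme UGT76C2, 0.571-fold. With a pseudocount of 1 in place of 16 the log2 differences of these 2 dim genes were -1.78 and -1.35, and UGT87A2 with 0.92 exceeded UGT80B1 with 0.81. At an unadjusted p under 0.05 there was 1 member, UGT80B1 (limma unadjusted p = 0.0492, adjusted p = 0.999), against 1.11% of all tested probe sets.

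The 2 treated arrays lay apart from both untreated arrays at 120 min for 9 of the 22 genes, against 21.7% of all tested probe sets. They lay above for 5 genes (UGT84A4, UGT80B1, UGT76D1, UGT88A1 and UGT87A2), against 11.4%, and below for 4 genes (UGT71C2, UGT76E2, UGT72E3 and UGT76C2), against 10.3%. Mean values were higher in treated roots for 8 genes and lower for 14, against 51.3% and 48.7% of all tested probe sets. The median log2 difference of the 22 genes was -0.21, with a range of -0.89 to 0.64, and that of all tested probe sets was 0.0092.

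The sign of this median turned when treated replicate 1 was left out. Without that array the median was 0.21, with 16 genes higher and 6 lower, and without treated replicate 2 it was -0.56. The sign turned for 8 genes without treated replicate 1, namely UGT71C1, UGT72E1, UGT74D1, UGT76B1, UGT85A2, UGT71C3, UGT71C5 and UGT84A1. It turned for 4 genes without untreated 120 min replicate 1 (UGT78D2, UGT74D1, UGT74B1 and UGT73D1), for 3 without untreated 120 min replicate 2 (UGT72E1, UGT71C4 and UGT71C3) and for 0 without treated replicate 2. Under median centring of the arrays UGT71C4 turned sign as well.

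**Figure D1:**
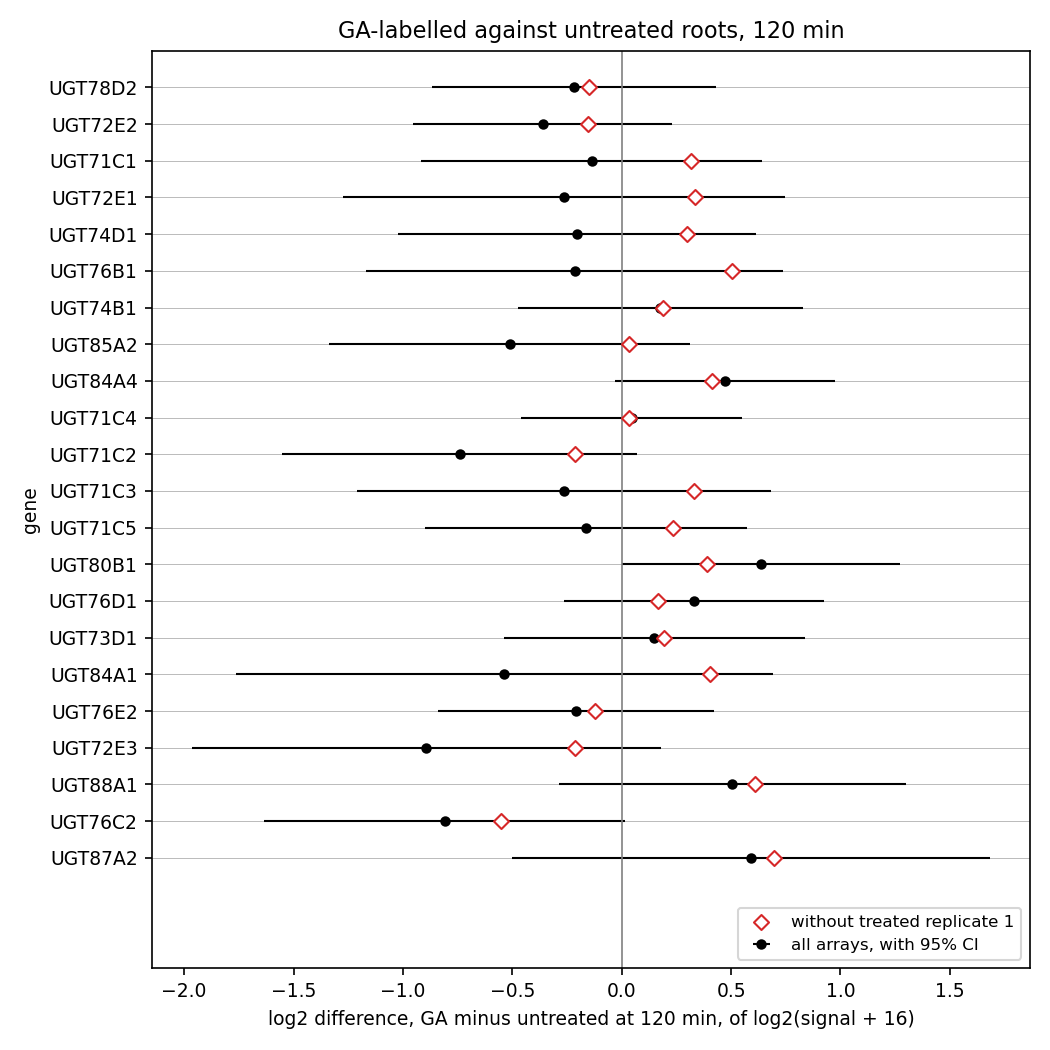
Log2 differences between GA-labelled and untreated roots at 120 min for 22 UGT genes (black points, bars are 95% confidence intervals from limma, 2 arrays per group) and the same without treated replicate 1 (open diamonds). All intervals but that of UGT80B1 include 0, and 8 diamonds lie on the other side of 0 from their point.

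Among the enzymes that glucosylate monolignols, the building blocks of lignin, UGT72E2 (AT5G66690) read 245 and 281 on the 0 min arrays, 319.6 and 444 in the later untreated group, and 249 and 337 in treated roots. Both untreated arrays at 120 min lay above both at 0 min, while treated replicate 1 lay inside the 0 min range and treated replicate 2 inside the untreated range at 120 min. The log2 treatment difference was -0.36 (95% CI -0.95 to 0.23) and that over time 0.50 (95% CI -0.096 to 1.09). UGT72E1 (AT3G50740), which acts on the corresponding aldehydes, read 136 and 214 on the 0 min arrays, 157 and 319 in the later untreated group, and 116 and 288 in treated roots. Replicate 2 was the higher array in each of the 3 groups, all groups overlapped, and the treatment difference was -0.26 (95% CI -1.27 to 0.75).

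UGT72E3 (AT5G26310), the other monolignol enzyme, read 29.4 and 62.4 at 0 min, 41.7 and 41.9 at 120 min without treatment, and 3.43 and 33.9 with it. The lowest value came from treated replicate 1, and the other treated array lay below both untreated arrays at 120 min but inside the range at 0 min. Its difference of -0.89 (95% CI -1.96 to 0.18) was -0.21 without that array.

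UGT84A4 and UGT84A1 form glucose esters of hydroxycinnamic acids, the precursors of monolignols and sinapate esters. UGT84A4 (AT4G15500) read 70.6 and 81.4 on the 0 min arrays, 90.5 and 100.4 in the later untreated group, and 145 and 132 in treated roots. All 3 of its groups lay apart from each other. UGT84A4 was the only such member, 1 of 22 (4.55%), a share near the 4.20% of all tested probe sets. Its signals were lowest at 0 min and highest in treated roots. The group means were 76.0 ± 7.63, 95.4 ± 6.99 and 138 ± 8.60 in that order (SD, n = 2 for each). The treated value was 1.39-fold that of untreated roots at 120 min, a log2 difference of 0.47 (95% CI -0.031 to 0.97), and leaving out each array in turn gave 0.41 to 0.54 (limma unadjusted p = 0.0626, adjusted p = 0.999).

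UGT84A1 (AT4G15480), a neighbour of UGT84A4 in the genome with UGT84A3 between them, did not show that order. It read 29 and 43.8 at 0 min, 70.2 and 43.6 at 120 min without treatment, and 9.81 and 78.7 with it. The treated arrays took the lowest and the highest value of all 6, and the difference turned from -0.54 to 0.40 without treated replicate 1. UGT84A3, the gene between, read 22.5 and 19.3 at 0 min and 0.89 to 10.9 on the other 4 arrays, below the filter.

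The brightest flavonoid probe set was that of UGT78D2 (AT5G17050), which adds glucose to the 3 position of flavonols and anthocyanidins. It read 409.7 and 428 on the 0 min arrays, 536 and 302 in the later untreated group, and 328 and 361 in treated roots. The untreated arrays at 120 min lay on either side of all others, and the treated arrays lay below both 0 min arrays. The treatment difference was -0.22 (95% CI -0.87 to 0.43) and that of treated roots from 0 min was -0.27 (95% CI -0.92 to 0.38). UGT71C1 (AT2G29750), which accepts hydroxycinnamates and flavonols in vitro, read 166 and 275 at 0 min, 258 and 243 at 120 min without treatment, and 160.4 and 315 with it. Treated replicate 1 was its lowest array and treated replicate 2 its highest, and the difference was -0.14 (95% CI -0.92 to 0.64).

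UGT88A1 (AT3G16520), which glucosylates flavonols in vitro, read 18.9 and 31.5 on the 0 min arrays, 15.6 and 31.6 in the later untreated group, and 35.3 and 43.1 in treated roots. The treated arrays were the highest pair, although the untreated ones reached 31.6. The treatment difference was 0.51 (95% CI -0.29 to 1.30), and 0.61 without treated replicate 1. The other flavonoid members, the rhamnosyltransferase UGT78D1 and the arabinosyltransferase UGT78D3, lay below the filter on means of 11.2 and 6.62.

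UGT74B1 (AT1G24100) makes desulfoglucosinolates, the last step but 1 of core glucosinolate synthesis, and read 78.4 and 135 on the 0 min arrays, 143 and 203 in the later untreated group, and 193 and 197 in treated roots. The 0 min arrays were the lowest pair and both later groups lay above them. The group means were 107 ± 39.8, 173 ± 42.3 and 195 ± 2.44 in the same order (SD, n = 2 for each). The log2 difference over time was 0.64 (95% CI -0.0068 to 1.30) (limma unadjusted p = 0.052, adjusted p = 1), and over the single arrays left out it lay between 0.31 to 0.98. Treated roots differed from untreated roots at 120 min by 0.18.

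The salicylic acid enzyme UGT76B1 (AT3G11340), which also glucosylates isoleucic acid and N-hydroxypipecolic acid, read 199 and 243 on the 0 min arrays, 200.4 and 146 in the later untreated group, and 81.9 and 250.0 in treated roots. The treated arrays again held both the lowest and the highest value. UGT74D1 (AT2G31750), which glucosylates auxins, read 204 and 277 at 0 min, 221 and 144 at 120 min without treatment, and 103 and 224 with it, with treated replicate 1 lowest and the 0 min replicate 2 highest. The treatment differences were -0.22 (95% CI -1.17 to 0.74) for UGT76B1 and -0.20 (95% CI -1.02 to 0.61) for UGT74D1, and both turned positive without treated replicate 1, to 0.51 and 0.30.

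UGT76C2 (AT5G05860), which N-glucosylates cytokinins, read 22.3 and 41.7 on the 0 min arrays, 33 and 42.7 in the later untreated group, and 9.64 and 20.6 in treated roots. Both treated arrays lay below all 4 untreated ones. The signal was 15.1 ± 7.72 in treated roots against 37.9 ± 6.85 in untreated roots at 120 min (SD, n = 2 for each). The treatment difference was -0.81 (95% CI -1.63 to 0.016), and it stayed below 0 with each array left out, at -1.06 to -0.55 (limma unadjusted p = 0.0537, adjusted p = 0.999). UGT76C1 (AT5G05870), its neighbour and fellow cytokinin enzyme, read 12.1 and 11.3 at 0 min, 8.32 and 6.96 at 120 min without treatment, and 20.6 and 26.3 with it and did not pass the filter. There the treated arrays were the highest pair, opposite to UGT76C2.

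UGT71C5 (AT1G07240), which glucosylates abscisic acid, read 51.4 and 82.7 at 0 min, 63.5 and 64.8 at 120 min without treatment, and 38.3 and 78.2 with it. Its untreated arrays at 120 min were nearly equal and lay between the treated arrays. The treatment difference was -0.16 (95% CI -0.90 to 0.57), and 0.23 without treated replicate 1. Next to it in the genome lies UGT71C4 (AT1G07250), which has UGT71C3 (AT1G07260) on its other side. UGT71C4 read 101 and 119 at 0 min, 89.3 and 79.9 at 120 min without treatment, and 88.6 and 86.7 with it. Its highest value was 1.49 times its lowest, and both untreated arrays at 120 min lay below both at 0 min, a difference of -0.32 (95% CI -0.83 to 0.18). UGT71C3 read 54.5 and 83.9 at 0 min, 55 and 101 at 120 min without treatment, and 34.4 and 98.3 with it. Replicate 1 was the lower array in each group, and the treatment difference was -0.26 (95% CI -1.21 to 0.68).

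UGT71C2 (AT2G29740), next to UGT71C1, read 60.1 and 91.1 at 0 min, 84.1 and 93.7 at 120 min without treatment, and 27.5 and 74.3 with it. Both treated arrays lay below both untreated arrays at 120 min, but the difference of -0.74 was -0.21 without treated replicate 1.

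UGT80B1 (AT1G43620), also called TRANSPARENT TESTA 15, glucosylates membrane sterols and read 53.3 and 39.2 on the 0 min arrays, 38.7 and 42.5 in the later untreated group, and 88.5 and 58.3 in treated roots. Both treated arrays lay above all 4 untreated ones. Its signal was 73.4 ± 21.3 in treated roots and 40.6 ± 2.69 in untreated roots at 120 min (SD, n = 2 for each). The difference was 0.64 (95% CI 0.0029 to 1.27), and 0.39 to 0.88 over the single arrays left out. UGT76D1 (AT2G26480), which glucosylates dihydroxybenzoic acids, read 46.7 and 36.6 at 0 min, 46.3 and 47.5 at 120 min without treatment, and 72.5 and 54.7 with it. Its treated arrays also lay above all 4 untreated ones, with a difference of 0.33 (95% CI -0.26 to 0.93). For both genes treated replicate 1 was the higher treated array.

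UGT87A2 (AT2G30140), known for an effect on flowering time, read 5.16 and 42.6 on the 0 min arrays, 25.2 and 15.4 in the later untreated group, and 34.3 and 42.4 in treated roots. The treated arrays lay above both untreated arrays at 120 min, but the 0 min arrays spanned a wider range than any other group. The difference was 0.59 (95% CI -0.50 to 1.68). The remaining 3 genes have no role given here. UGT85A2 (AT1G22360) read 88.3 and 140.3 at 0 min, 121 and 124 at 120 min without treatment, and 50.4 and 126 with it. Treated replicate 1 was its lowest array and the groups overlapped, with a treatment difference of -0.51 (95% CI -1.34 to 0.31) that was 0.034 without that array.

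UGT73D1 (AT3G53150) read 42.1 and 38.3 at 0 min, 31.5 and 61.2 at 120 min without treatment, and 49.1 and 53.3 with it. The untreated arrays at 120 min enclosed the treated arrays, which lay above both 0 min arrays, and the treatment difference was 0.15 (95% CI -0.54 to 0.84). UGT76E2 (AT5G59590) read 31 and 31.7 at 0 min, 40.7 and 42.8 at 120 min without treatment, and 31 and 37.1 with it. Both treated arrays lay below both untreated arrays at 120 min, a difference of -0.21 (95% CI -0.84 to 0.42). Treated replicate 1 read about as the 0 min arrays did, and treated replicate 2 above them.

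**Figure D2:**
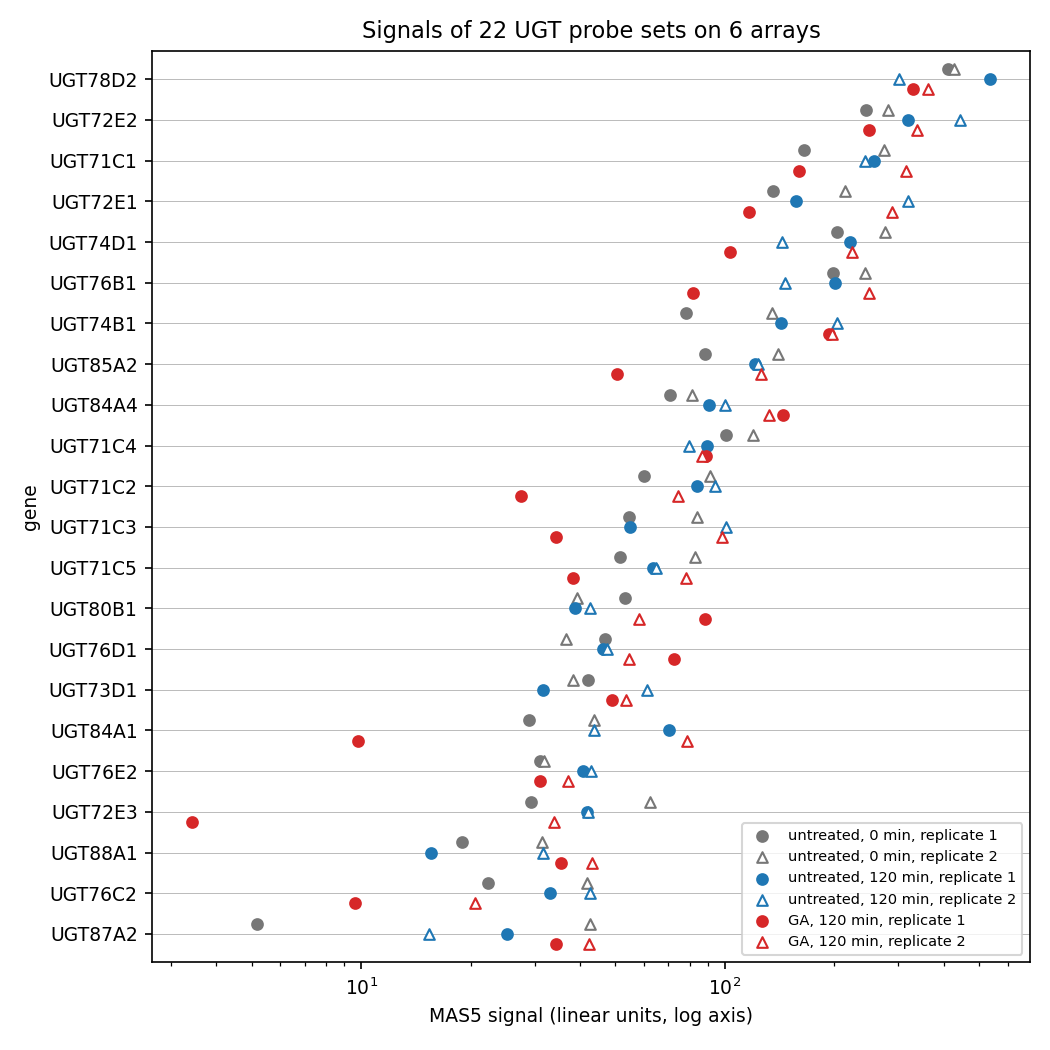
MAS5 signals (linear units on a log axis) of the 22 UGT genes on each of the 6 arrays, coloured by group, with filled circles for replicate 1 and open triangles for replicate 2. For 12 of the 22 genes the filled red circle, treated replicate 1, is the lowest of the 6, against 24.6% of all tested probe sets. UGT84A4 shows 3 separate groups, 1 of 22 genes against 4.20% of all tested probe sets.

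The second comparison was over time, between both untreated groups. No UGT gene passed (limma, 0 of 22 against 0% of 13647, lowest adjusted p = 1 for both), and 0 of 22 had an unadjusted p under 0.05, against 1.08% of all tested probe sets. UGT74B1 had the largest positive value, 1.56-fold, followed by UGT72E2 with 1.41-fold. The largest negative log2 differences were those of UGT74D1 with -0.38, UGT76B1 with -0.33 and UGT71C4 with -0.32. Groups lay apart for 5 of 22 genes, against 27.0% of all tested probe sets. UGT72E2, UGT74B1, UGT84A4 and UGT76E2 were higher at 120 min (4 genes, against 11.3%), and UGT71C4 was lower (1 gene, against 15.8%). Means were higher for 14 genes and lower for 8, against 46.3% and 53.7%, with a median log2 difference of 0.12 against -0.020 for all tested probe sets. Without untreated 0 min replicate 1 that median was -0.094. That array also turned the sign of 7 genes when left out (UGT71C1, UGT85A2, UGT71C2, UGT71C3, UGT80B1, UGT76C2 and UGT87A2). Without untreated 120 min replicate 2 the sign turned for 4 (UGT78D2, UGT72E1, UGT71C3 and UGT73D1), without 0 min replicate 2 for 3 (UGT71C5, UGT72E3 and UGT88A1) and without untreated 120 min replicate 1 for 2 (UGT88A1 and UGT87A2). Quantile normalization turned UGT71C5, UGT72E3 and UGT88A1, median centring UGT71C5, and a pseudocount of 32 UGT87A2.

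The third comparison was of treated roots with the untreated 0 min group and so holds treatment, plant line and time together. It shares arrays with both other comparisons and is not separate evidence. The phenylpropanoid enzyme UGT84A4 was 1.68-fold and the glucosinolate enzyme UGT74B1 1.77-fold the 0 min level, log2 differences of 0.75 (95% CI 0.25 to 1.25) and 0.82 (95% CI 0.17 to 1.47). They were the 2 of 22 genes with an unadjusted p under 0.05 (limma, 0.00828 and 0.0192), against 2.58% of all tested probe sets, and neither passed the adjustment (adjusted p = 1, 0 of 22 called against 0%). Groups lay apart for 9 genes, against 28.0%. UGT74B1, UGT84A4, UGT80B1, UGT76D1, UGT73D1 and UGT88A1 were higher (6 genes, against 13.0%), and UGT78D2, UGT71C4 and UGT76C2 were lower (3 genes, against 15.0%). Means were higher for 11 genes and lower for 11, against 48.2% and 51.8%, and the median difference was 0.0021 against -0.012 for all tested probe sets. Without treated replicate 1 the median was 0.28, without treated replicate 2 it was -0.36, and without untreated 0 min replicate 1 it was -0.27.

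**Figure D3:**
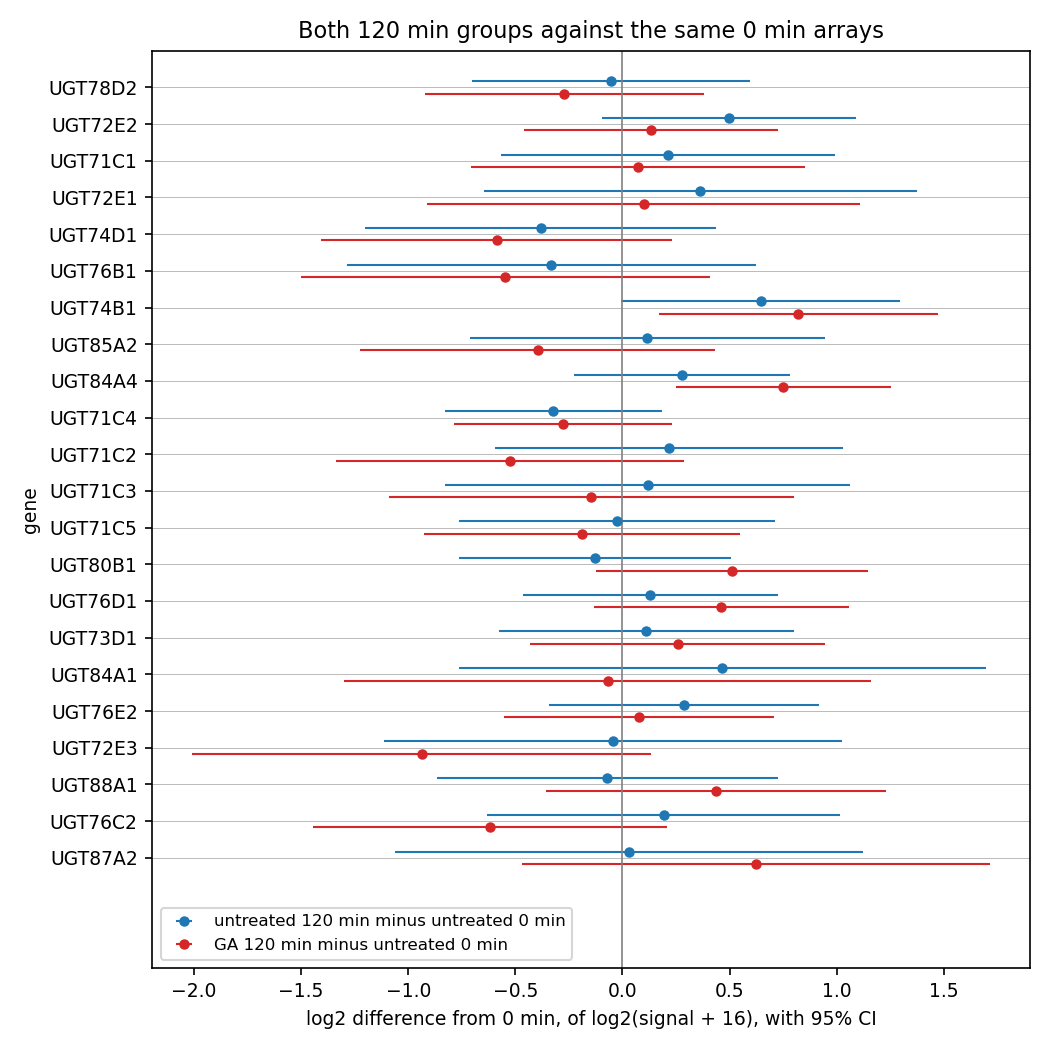
Log2 differences from the untreated 0 min arrays for 22 UGT genes, in untreated roots at 120 min (blue) and treated roots at 120 min (red), with 95% confidence intervals from limma and 2 arrays per group. Both series share the 0 min arrays. The red intervals of UGT84A4 and UGT74B1 lie above 0, and all others include it.

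The 22 genes tended to read lower on the replicate 1 arrays, while the tested probe sets as a whole did not. All arrays shared a mean of 100.01 without the lowest and highest 2%. That scaling by itself keeps the probe sets as a whole near no difference. Replicate 1 read lower than replicate 2 for 19 of 22 genes at 0 min, against 47.8% of all tested probe sets. In untreated roots at 120 min this held for 15 genes, against 46.9%, and in treated roots for 18 genes, against 46.4%. The median difference of replicate 1 from replicate 2 was -0.43, -0.041 and -0.46 in log2 for the UGT genes, in the order 0 min, untreated 120 min and treated, and 0.019, 0.034 and 0.046 for all tested probe sets. Within each group the replicate 1 array was the one with the higher 3′ to 5′ ratios, and the part of these ratios in the UGT signals was not tested.

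Treated replicate 1 was the lowest of the 6 arrays for 12 of 22 genes, against 24.6% of all tested probe sets. It was the highest for 3 genes, UGT84A4, UGT80B1 and UGT76D1, against 27.7%. The 12 were UGT71C1, UGT72E1, UGT74D1, UGT76B1, UGT85A2, UGT71C2, UGT71C3, UGT71C5, UGT84A1, UGT76E2, UGT72E3 and UGT76C2. These counts were chosen after the values were seen and were not tested.

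**Figure D4:**
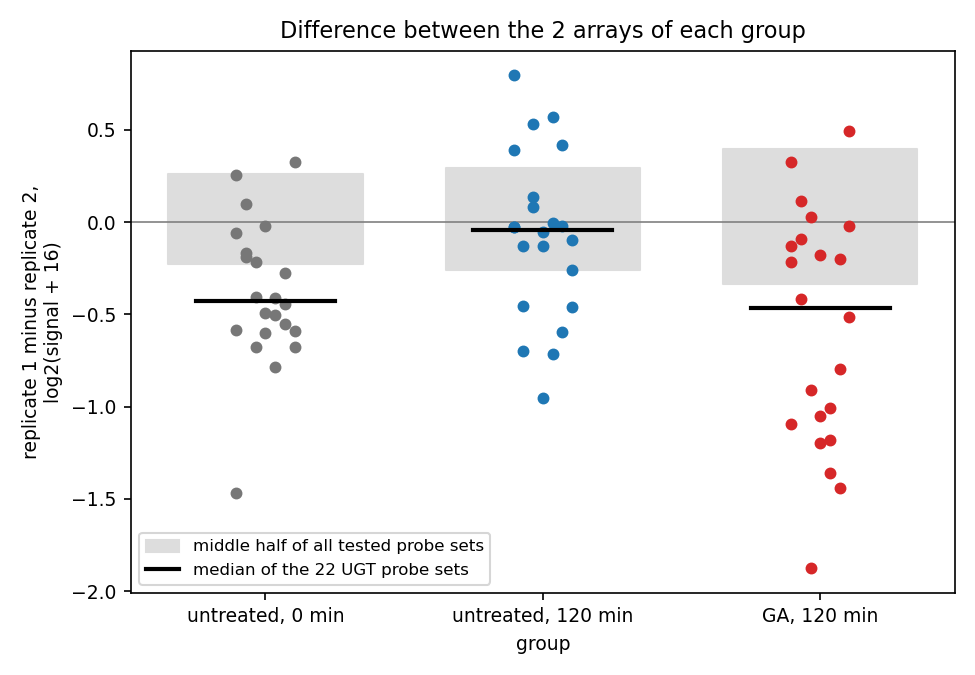
Difference between replicate 1 and replicate 2 in log2(signal + 16) for each of the 22 UGT genes, by group, with the UGT median (black line) and the interquartile range of all tested probe sets (grey band). The UGT medians of -0.43 at 0 min and -0.46 in treated roots lie below the grey bands, and that of untreated roots at 120 min, -0.041, lies inside.

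Some pairs of genes followed each other closely across the 6 arrays, and others ran opposite to each other. As a description, the highest Pearson correlations of log2 signals among 231 pairs were 0.98 for UGT85A2 and UGT71C2, 0.97 for UGT71C2 and UGT72E3, 0.97 for UGT72E1 and UGT71C3, 0.97 for UGT85A2 and UGT72E3, and 0.96 for UGT74D1 and UGT76B1. All 7 genes of these pairs read lowest on treated replicate 1, so the pairs share that array. The lowest correlations were -0.96 for UGT78D2 and UGT73D1, -0.95 for UGT80B1 and UGT76C2, and -0.95 for UGT80B1 and UGT72E3. The median correlation was 0.45 over the 21 pairs of the same numbered family and 0.25 over the other 210 pairs. Many of the 21 pairs share genes, since 5 of the genes are UGT71 and 4 are UGT76 members, and the contrast was not tested. By RefSeq gene order 26 of the 47 genes, and 11 of the 22, lie next to another UGT gene. All 47 probe sets had names without the letter that marks probes shared between genes, but cross-hybridisation between such neighbours was not tested.

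The other 25 UGT genes lay below the filter, with means of 1.60 to 23.2 and single signals of 0.516 to 46.2. Of these, 16 stayed below 25 on every array and 13 had a mean below 10. Among them were the auxin enzyme UGT84B1, with 1.32 to 9.36, and the salicylic acid enzyme UGT74F1, with 2.5 to 46.2. UGT73B4, which can conjugate breakdown products of the explosive TNT, read 7.74 and 21.9 at 0 min, 34.8 and 1.89 at 120 min without treatment, and 5.51 and 31.8 with it, and UGT73B5, next to it in the genome, read 22.2 and 27.3 at 0 min, 21.4 and 33.2 at 120 min without treatment, and 9 and 26 with it. UGT73B4 was lowest on untreated 120 min replicate 2 and UGT73B5 on treated replicate 1, and the treated and untreated arrays at 120 min overlapped for both.

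A pattern noticed after the values were seen was that 4 of these 25 genes, UGT84A3, UGT84B2, UGT78D3 and UGT76E11, read higher on both 0 min arrays than on the other 4, against 5.92% of the 9099 probe sets below the filter. UGT78D3 read 16.8 and 16.1 at 0 min and 0.521 to 2.61 later. UGT76E11 read 15.8 and 8.98 at 0 min and 0.635 to 1.25 later. All 4 genes stayed below the filter signal of 25.8 on every array, and whether such signals stand above background was not tested. When tested without the filter, 0 of the 25 passed in any comparison by limma. At an unadjusted p under 0.05 there were 2 for treatment, 3 over time and 3 for treated roots against 0 min. The 3 were the same genes both times, UGT78D3, UGT76E11 and UGT84A3, all among the 4 named above. Both comparisons share the 0 min arrays, so these counts are not separate evidence. Among all 9099 probe sets below the filter, 5.67%, 4.48% and 6.88% had such a p in the same fit. The shares over all 22746 probe sets were 2.74%, 2.29% and 4.06%.

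Genes of the acceptor pathways were taken from 6 fixed lists, of which few had a named probe set, and none of those tested passed in any comparison. For phenylpropanoid and monolignol synthesis 4 of 25 symbols had a probe set and 3 genes were tested, with 2 higher and 1 lower in treated roots. HCT, which makes shikimate esters on the way to monolignols, read 359 and 437 at 0 min, 355 and 473 at 120 min without treatment, and 389.9 and 537 with it, and differed by 0.15. REF1, the dehydrogenase that forms sinapic and ferulic acids, differed by -0.03, and the methyltransferase gene CCOAMT by 0.68. CCOAMT was dim, with 24.1 and 59.7 in treated roots and 18.4 to 21.1 on the untreated arrays. Its difference was 0.22 to 1.13 over the single arrays left out. For flavonoids 3 of 22 symbols had a probe set and 1 was tested, the chalcone isomerase-like gene CHIL, with -0.05.

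For glucosinolates 3 of 30 symbols had a probe set and 2 were tested. BCAT4, which starts methionine chain elongation, differed by 0.35 and the glutathione transferase gene GSTU20 by -0.042. Over the single arrays left out the BCAT4 difference ranged from -0.43 to 1.14. BCAT4 read 43 and 41.9 at 0 min and 64.2 and 222 in untreated roots at 120 min, a difference over time of 1.24 that was 0.46 without untreated 120 min replicate 2. Over time GSTU20 differed by 0.38, with a range of -0.051 to 0.81 over the single arrays left out. For the supply of UDP-sugars 1 of 31 symbols was measured and tested, the pyrophosphorylase gene USP, with -0.26. Of hormone conjugation outside the UGT genes 5 of 42 symbols had a probe set and 2 were tested. The amino acid conjugases GH3.5 and GH3.17 differed by 0.16 and -0.032. Of the list of other xenobiotic conjugation and export, which holds glutathione transferase and transporter genes, 11 of 50 symbols had a probe set and 8 were tested, with 3 higher and 5 lower in treated roots and a median log2 difference of -0.033. The widest differences were those of GSTU16 with 0.56 and GSTU22 with 0.35. Over the single arrays left out they ranged from 0.33 to 0.79 for GSTU16 and from -0.010 to 0.72 for GSTU22.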

How the data were processed

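The authors deposited 1 table of linear intensity values, with a column for each array. The submitters' processing notes name MAS5 and GCOS but give neither version nor role. The mean without the lowest and highest 2% was 100.01 on every array. Of 22810 probe sets, 64 array controls described quality only. Groups and replicate numbers came from the sample titles.

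The other 22746 were taken to log2(signal + 16). Those with a mean signal above the 40th percentile (25.8) were tested, 13647 in all, with limma 3.58.1 in R 4.3.3 (lmFit, eBayes with a mean-variance trend). All 3 groups entered 1 fit with 3 residual degrees of freedom and 5.80 from the prior. Two-sided p-values had Benjamini-Hochberg adjustment over the 13647, at 0.05. With 2 arrays a group, an exact permutation test cannot pass. For treated against untreated roots at 120 min the 95% confidence intervals had a median half-width of 0.64 in log2 over all tested probe sets. Over the 22 UGT genes it was 0.79. Precision is limited by the small number of arrays.

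Gene names were those of GEO's platform annotation, which can be old, with locus tags and gene order from RefSeq TAIR10.1. Probe sets naming 1 gene numbered 13513, several 503, and 8730 were not listed. Genes were named by rule: every UGT gene with a mean of 25 or more, list members with the smallest p, and the 5 most alike pairs. The UGT genes named below that mean were chosen after their values were seen. Members and lists were chosen with earlier results of these data known. The symbol CHI was dropped from the flavonoid list after matching, since here it named another gene. The alternatives were the pseudocount, filter, normalization, variance prior, samples in the fit, replicate block and each array left out.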

Additional observations from a re-analysis of the deposited data

How the results depend on the processing

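No UGT gene passed in any of the 3 comparisons under any of the alternatives run, including pseudocounts of 1 and 32, no filter, a filter at the 60th percentile (13 UGT genes left), quantile normalization, median centring, eBayes without a trend and a fit of only the groups compared. With each array left out, the number of all probe sets called ranged from 0 to 7 for treated roots against 0 min and was 0 for the others. The 7 came without treated replicate 2, with 1 treated array left that was assumed to vary like the other groups. The median log2 difference of the 22 UGT genes ranged from -0.56 to 0.21 for treatment, from -0.094 to 0.36 over time and from -0.36 to 0.28 for treated roots against 0 min. The extremes for treatment and for treated roots against 0 min came without treated replicate 2 and without treated replicate 1. Without untreated 0 min replicate 1 the last was -0.27. The cause was not tested. The other alternatives moved these medians by less than their spread between replicates, 0.24. Samples with the same replicate number deviated together over all tested probe sets, with correlations of 0.31, 0.34 and 0.36 between groups (0 min with untreated 120 min, untreated 120 min with treated, 0 min with treated). Over the 22 UGT genes these were -0.046, -0.13 and 0.44. The samples share only a number in the labels. With the replicate number as a block, 0 probe sets and 0 UGT genes were called in each comparison, and the block changed no call. The 25 dim genes entered only the fit without a filter, where 0 were called.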
